A study of Mus musculus with 9 samples.

Results

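The genes described here are Ly6a, which encodes the surface protein Sca-1, and 9 genes taken as markers of fibroblasts close to the inner bone surface or the vessel wall. They are Ly6c1, Pi16, Dpt, Clec3b, Mfap5, Sema3c, Dpep1, S100a4 and S100a6. The 10 genes were taken by symbol, with earlier results of these data known, and all 10 were found among the 30579 genes of the expression table. RNA was sequenced from mesenchymal stromal cells, the connective-tissue cells that support blood formation, sorted from the marrow of mouse long bones. The 9 libraries fall into 3 groups of 3. The first came from mice labelled aged Thbs1 knockout at 18 months of age, the second from aged controls of 18 months and the third from young controls of 3 months. All mice had been injected with an antibody to VE-cadherin, an endothelial surface protein, shortly before they were killed. The sources used here do not give the strain, the sex, the kind of knockout allele or the sorting gates. Whether libraries of the same group stem from different mice is not stated in the labels, so a p-value here reflects only the scatter among libraries, which may be technical.

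Marrow stroma is made up mainly of perivascular cells that carry the leptin receptor and secrete Cxcl12 and Kit ligand. A smaller population of fibroblasts, found along bone surfaces and around larger vessels, makes a loose collagenous matrix. It is recognised by Sca-1 on the surface and by RNA of secreted and matrix genes such as Pi16, Dpt, Clec3b and Mfap5. Sca-1 is also widely used to isolate blood stem cells and is carried by many lymphocytes, so that its RNA in a sorted sample can come from more than 1 kind of cell. In RNA from a whole sorted sample, fewer cells of a type and less RNA per cell cannot be told apart.

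Expression was given as FPKM, that is, fragments counted per kilobase and scaled to the total of each library, so that levels of different genes can be compared. The smallest steps between low values put the depth at an estimated 17.7 to 27.6 M reads per library (M, mega). At that depth 3 reads came to 0.0902 to 0.141 FPKM for Ly6a and to 0.0152 to 0.0237 FPKM for Sema3c, counting error only. Thbs1 RNA was at 24.28, 44.55 and 37.05 FPKM in the libraries labelled knockout, against 35.56, 41.89 and 36.85 FPKM in aged controls, and these ranges overlapped. The Thbs1 values thus do not separate those groups, and the first is called the labelled-knockout libraries throughout. Replicate 2 of the labelled-knockout libraries differed from the rest, correlating with each of the others at only 0.738 to 0.811, while the highest correlation of each other library was 0.937 to 0.987. Markers of leptin receptor stroma summed to 6556 to 9033 FPKM in labelled-knockout libraries, 4256 to 6199 FPKM in aged controls and 8461 to 9558 FPKM in young controls, and 0 of 8 were below 1 FPKM throughout. Immunoglobulin genes took 0.925%, 48.8% and 10.5% of the summed FPKM in labelled-knockout replicates 1, 2 and 3. Their share was 54.6%, 17.3% and 70.7% in aged controls, against 0.0224%, 0.0489% and 0.861% in young controls. Since FPKM is scaled to a library's total, a large immunoglobulin share lowers the values of all other genes of that library.

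Several of these genes lie side by side in the genome, and their sequences bear on how the values can be read. In GENCODE M21 (GRCm38), Ly6a (ENSMUSG00000075602.10) lies on chromosome 15 from 74994877 to 74998031 on the reverse strand. Ly6c1 (ENSMUSG00000079018.10) follows on the same strand from 75044018 to 75048830, separated from Ly6a by 46.0 kb, and its near copy Ly6c2 is a further 59.3 kb away. Of all 50-base windows in annotated transcripts, 19.0% of those of Ly6a and 32.8% of those of Ly6c1 also occurred in another gene, chiefly another Ly6 gene. The sources used here do not say how reads matching several genes were counted, so the split of reads among Ly6a, Ly6c1, Ly6c2 and Ly6i is uncertain. S100a4 (ENSMUSG00000001020.8, chromosome 3, 90603771 to 90606045, forward strand) and S100a6 (ENSMUSG00000001025.8, 90612882 to 90624181, forward strand) are 6.8 kb apart. S100a4 shared 47.4% of its windows with the overlapping gene model Gm42674. Dpt, Clec3b, Mfap5, Sema3c and S100a6 shared 0.0% and Dpep1 0.4%, while Pi16 shared 3.9% and has an overlapping gene on the opposite strand, AC162182.1.

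Promoter windows of 250 bases before the RefSeq start (GRCm38.p6) were found for 7 of the 10 genes. The windows of 3 of them and of Ly6c2 are shown because Dpt and S100a4 had similar profiles over the libraries, while the near copies Ly6c1 and Ly6c2 had different ones. Some other pairs with windows, such as S100a4 and S100a6, were closer in profile. The windows shown lie at chr1:164796413-164796662 on the forward strand (Dpt), chr3:90603520-90603769 on the forward strand (S100a4), and chr15:75048838-75049087 and chr15:75111972-75112221 on the reverse strand (Ly6c1 and Ly6c2). Each is written 5′ to 3′ with motif matches in capitals.
Dpt: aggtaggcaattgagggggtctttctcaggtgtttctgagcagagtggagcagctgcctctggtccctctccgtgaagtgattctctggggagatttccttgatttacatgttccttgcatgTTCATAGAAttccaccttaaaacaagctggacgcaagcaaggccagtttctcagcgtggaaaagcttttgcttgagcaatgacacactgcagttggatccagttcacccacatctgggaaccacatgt
S100a4: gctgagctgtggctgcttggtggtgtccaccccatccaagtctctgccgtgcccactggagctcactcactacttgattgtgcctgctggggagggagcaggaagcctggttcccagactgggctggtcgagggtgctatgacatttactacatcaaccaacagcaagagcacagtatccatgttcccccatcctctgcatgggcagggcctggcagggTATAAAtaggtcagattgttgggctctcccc
Ly6c1: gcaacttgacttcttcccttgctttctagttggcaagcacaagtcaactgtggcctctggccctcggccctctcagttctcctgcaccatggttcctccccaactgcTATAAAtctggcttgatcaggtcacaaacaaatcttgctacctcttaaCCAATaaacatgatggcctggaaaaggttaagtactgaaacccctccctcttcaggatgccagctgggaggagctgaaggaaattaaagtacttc
Ly6c2: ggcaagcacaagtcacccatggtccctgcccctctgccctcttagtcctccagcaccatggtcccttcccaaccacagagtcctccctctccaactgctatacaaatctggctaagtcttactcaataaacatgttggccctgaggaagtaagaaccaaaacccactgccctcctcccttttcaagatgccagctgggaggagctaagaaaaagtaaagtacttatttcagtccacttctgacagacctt
The windows were searched on both strands for the TATA box (TATAAA), the CCAAT box (CCAAT), the AP-1 site (TGANTCA) and the GAS element bound by STAT factors (TTCNNNGAA). These letters occurred in 12.4%, 33.8%, 6.75% and 7.02% of all 32851 promoter windows of this length. The Dpt window held a GAS element at -128, counted from the start, and the S100a4 window a TATA box at -31, so that the 2 windows shared no match. The Ly6c1 window held a TATA box at -143 and a CCAAT box at -95, and none of the 4 motifs was found in the Ly6c2 window. Bases just after the start were found in annotated transcripts of Dpt and Ly6c1, but not of S100a4 or Ly6c2. Ly6c1 and Ly6c2 each had 2 windows, of which that nearest the annotated gene start was used. No matches overlapped in the windows printed. Ly6c1 and Ly6c2 were identical at 164 of 284 aligned columns, or 57.7%, gap columns included. The Ly6c2 window starts with letters that lie further inside the Ly6c1 window, so the windows are offset, and gap columns lower this value. By the same alignment Dpt and S100a4 were identical at 125 of 280 columns, or 44.6%. A match describes the letters and not a site in use.

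Ly6a encodes Sca-1, a lipid-anchored surface protein. It was at 26.00, 484.97 and 128.55 FPKM in labelled-knockout replicates 1, 2 and 3, at 622.72, 132.81 and 559.17 FPKM in aged controls, and at 10.21, 18.23 and 22.59 FPKM in young controls. Ly6a averaged 213 ± 241 FPKM in labelled-knockout libraries, 438 ± 266 FPKM in aged controls and 17 ± 6.28 FPKM in young controls (SD, n = 3 each). All 3 aged controls and all 3 labelled-knockout libraries lay above every young control, although labelled-knockout replicate 1 exceeded young control replicate 3 by little. Labelled-knockout libraries and aged controls overlapped.

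Ly6a rose in aged against young controls, with a log2 fold change on the log2(FPKM + 1) scale of 4.39 (SE 0.96, 95% interval 2.22 to 6.55, limma with Benjamini-Hochberg adjustment, adjusted p = 0.0409). It alone among the 9 genes tested passed the threshold of 0.05 in that comparison, where 4.04% of all 11988 tested genes passed. The adjusted p in limma ranged from 0.0044 to 0.245 over 16 alternatives, with fold changes of 3.99 to 5.10. The call held in 6 of the 16, and leaving out any 1 library ended it for labelled-knockout replicate 3 (adjusted p = 0.06), aged replicates 1, 2 and 3 (0.245, 0.0526 and 0.122) and young replicates 1, 2 and 3 (0.143, 0.139 and 0.134). Without labelled-knockout replicate 2, the library that stood apart, the adjusted p was 0.00668 in a fit that called 23.1% of all genes. Labelled-knockout libraries differed from aged controls by −1.59 (SE 0.96, 95% interval −3.76 to 0.57, limma adjusted p = 0.393) and from young controls by 2.79 (SE 0.96, limma adjusted p = 0.481).

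**Figure D1:**
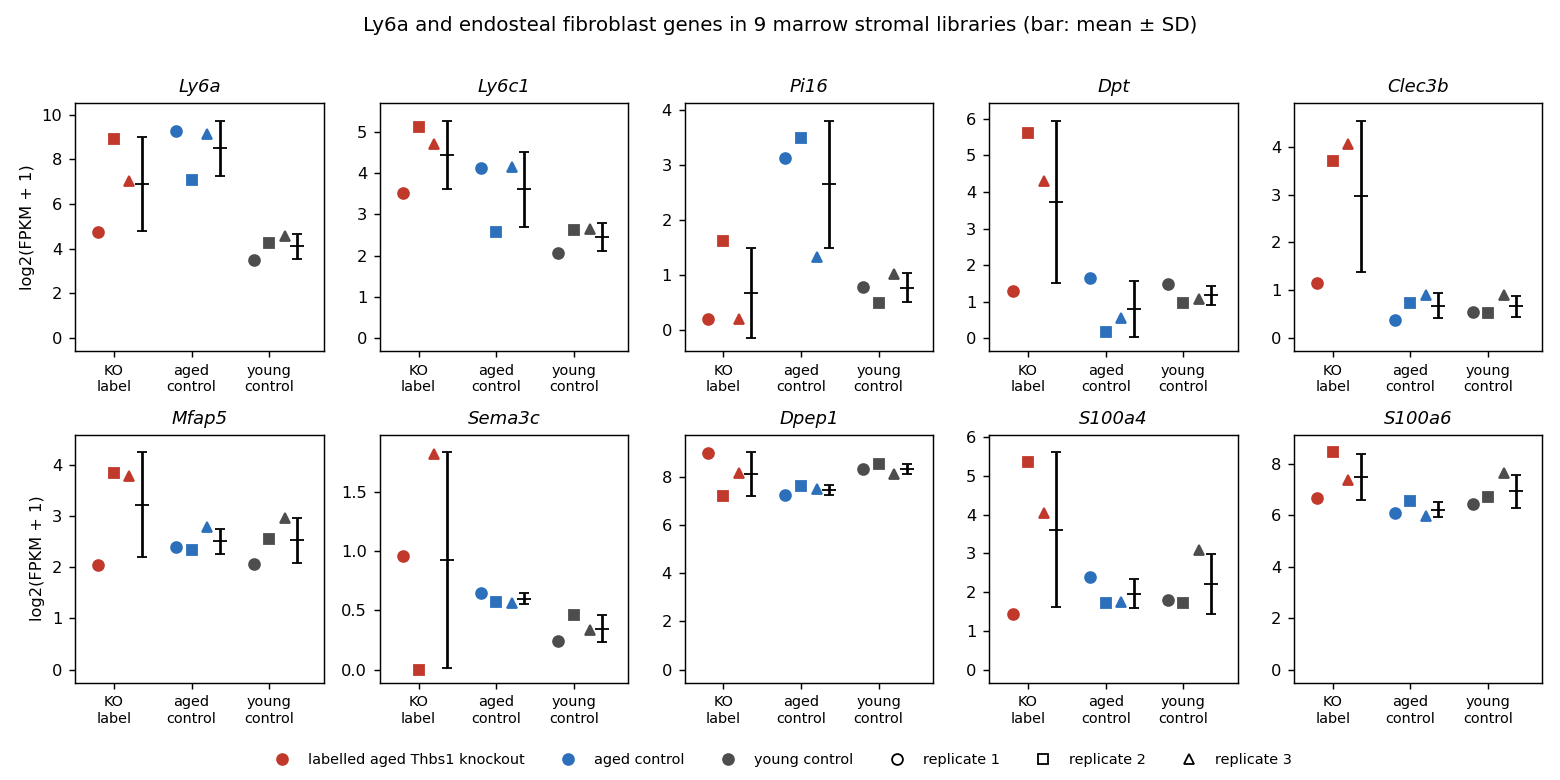
Levels of the 10 genes as log2(FPKM + 1) in the libraries labelled aged Thbs1 knockout (KO label), aged controls and young controls, 1 panel per gene with its own axis; symbols give the replicate and bars the mean ± SD of 3 libraries. Ly6a is higher in every aged control than in every young control, Pi16 is highest in aged replicates 1 and 2, and Dpt, Clec3b, Mfap5, S100a4 and S100a6 are lower in labelled-knockout replicate 1 than in replicates 2 and 3.

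The level of Ly6a followed the immunoglobulin share closely across libraries. Ordered by Ly6a, the libraries ran aged replicates 1 and 3, labelled-knockout replicate 2, aged replicate 2, labelled-knockout replicates 3 and 1, and young replicates 3, 2 and 1. Ordered by immunoglobulin share the sequence was the same, except that aged replicate 3 came before aged replicate 1. Jchain, the joining chain of secreted antibodies, was at 11.79, 964.01 and 206.08 FPKM in labelled-knockout libraries, 1103.57, 390.70 and 936.82 FPKM in aged controls and 2.76, 2.98 and 35.41 FPKM in young controls. The 9 plasma cell markers together summed to 1229 to 236494, 33486 to 212327 and 152 to 1599 FPKM in the 3 groups in that order, and none was below 1 FPKM in every library. Of these markers 6 of 9 rose in aged against young controls, where 2.57% of all genes rose. In labelled-knockout replicate 2, Igkc, an immunoglobulin gene, made up 235332.50 of the 236494 FPKM. Jchain and the sums broadly moved with Ly6a, but not every marker did. Sdc1 was at 157.90, 69.61 and 123.47 FPKM in labelled-knockout libraries, 118.46, 73.84 and 158.42 FPKM in aged controls and 113.72, 125.96 and 85.70 FPKM in young controls. Mzb1 was at 0.00 FPKM in labelled-knockout replicate 2. The part of these markers in the difference of Ly6a was not tested. Pan-leukocyte markers summed to 63.9 to 658 FPKM in labelled-knockout libraries, 600 to 1366 FPKM in aged controls and 57 to 99.6 FPKM in young controls.

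**Figure D2:**
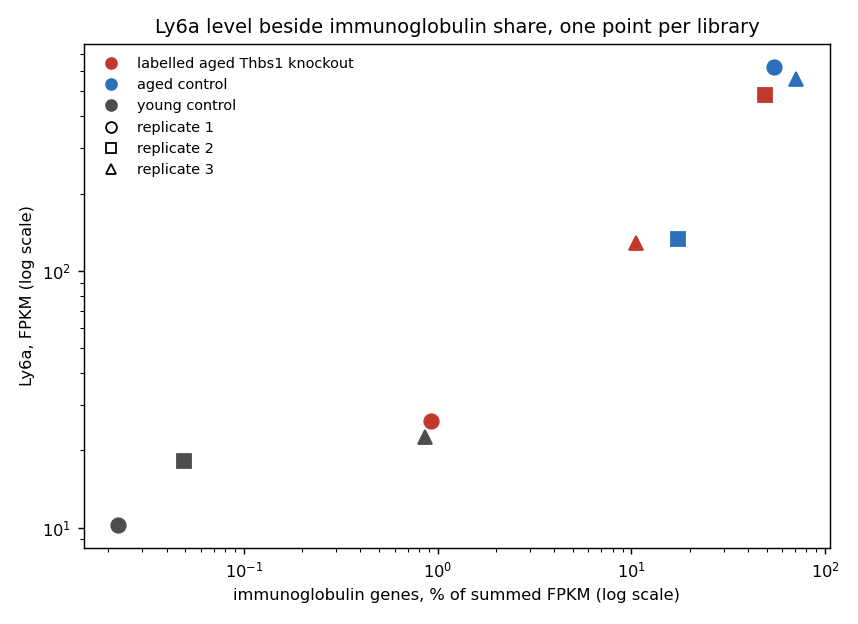
Ly6a in FPKM (log scale) against the share of summed FPKM taken by immunoglobulin genes (percent, log scale), 1 point per library, coloured by group with the replicate as symbol. The young controls and labelled-knockout replicate 1 sit at the lower left with shares of 0.0224% to 0.925%, and the libraries above 100 FPKM of Ly6a have shares of 10.5% to 70.7%.

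The genes whose profile over the 9 libraries was most like that of Ly6a were Tnfrsf13b, Lax1, Spint2, Tnfrsf17 and Gm5547. Likeness was measured as the root mean square difference of mean-centred log2(FPKM + 1), which came to 0.42, 0.44, 0.45, 0.47 and 0.48 for these genes, against a median of 2.34 over 11979 genes. Tnfrsf17, the B cell maturation antigen, was at 0.19, 30.27 and 3.02 FPKM in labelled-knockout libraries, 21.04, 6.61 and 25.21 FPKM in aged controls and 0.13, 0.00 and 0.13 FPKM in young controls. The closest of the 10 genes to Ly6a was Ly6c1, at a difference of 1.51, and the farthest was Dpep1 at 2.68.

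Ly6c1 encodes Ly6C1, a relative of Sca-1 on endothelial cells and some fibroblasts. It was at 10.40, 33.48 and 25.04 FPKM in labelled-knockout libraries, 16.41, 4.90 and 16.72 FPKM in aged controls and 3.17, 5.17 and 5.27 FPKM in young controls. Every labelled-knockout library lay above every young control, while aged replicate 2 lay within the young range. The log2 fold changes were 0.83 in labelled-knockout libraries against aged controls, 1.17 in aged against young controls and 2.00 in labelled-knockout libraries against young controls (SE 0.51 each, limma adjusted p = 0.405, 0.227 and 0.381). Endothelial markers were low, summing to 3.51 to 10.4, 4.17 to 14.7 and 3.90 to 5.91 FPKM in labelled-knockout libraries, aged controls and young controls, and Kdr, Tie1, Tek, Vwf and Cldn5 were below 1 FPKM in every library. Pecam1 of the same list differed between groups. It was at 0.02, 0.42 and 0.37 FPKM in labelled-knockout libraries, 9.34, 11.58 and 2.07 FPKM in aged controls and 0.05, 0.09 and 0.07 FPKM in young controls. It reached 1 FPKM in the aged controls alone.

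Other genes of the Ly6 family, most of which encode small lipid-anchored surface proteins, are the nearest relatives of Ly6a. Of 13 such genes 7 were tested, and 3 rose in aged against young controls, where 2.57% of all genes rose, with a median log2 fold change of 2.78 for the 7 and of −0.28 for all genes. Ly6d rose by 7.58 (SE 1.72, limma adjusted p = 0.0447), Ly6i by 2.78 (SE 0.61, limma adjusted p = 0.0413) and Ly6e by 1.41 (SE 0.32, limma adjusted p = 0.0436). Since Ly6i shares transcript windows with Ly6a and Ly6c1, its reads may in part be theirs, which was not tested. Ly6d was at 2.47, 864.26 and 88.32 FPKM in labelled-knockout libraries, 737.14, 93.36 and 819.56 FPKM in aged controls and 0.27, 0.30 and 3.98 FPKM in young controls, an order of libraries much like that of Ly6a. Ly6e, a broadly expressed member, was at 55.72, 138.35 and 83.03 FPKM in labelled-knockout libraries, 219.55, 192.34 and 221.85 FPKM in aged controls and 74.97, 70.05 and 92.53 FPKM in young controls. The aged controls lay above both other groups in all 3 libraries.

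Ly6c2, a near copy of Ly6c1 that marks monocytes and plasma cells in mice and was chosen after its values were seen, differed from Ly6c1 in its profile. It was at 3.55, 788.36 and 89.26 FPKM in labelled-knockout libraries, 578.14, 99.07 and 941.28 FPKM in aged controls and 0.11, 0.58 and 11.31 FPKM in young controls. Its log2 fold change in aged against young controls was 7.09 (SE 1.72, limma adjusted p = 0.0534). No Ly6 family gene passed in labelled-knockout libraries against aged or young controls in limma, where 2 and 3 of the 7 had an unadjusted p under 0.05, against 19.8% and 8.63% of all genes. The count of 3 in aged against young controls was 5 without labelled-knockout replicate 2, where 23.1% of all genes were called, 4 without its replicate 1, 1 without aged replicate 2, and 0 without labelled-knockout replicate 3, aged replicate 1 or 3, or any young replicate. It was 0 with median-ratio rescaling, and 3 with immunoglobulin genes left out.

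**Figure D3:**
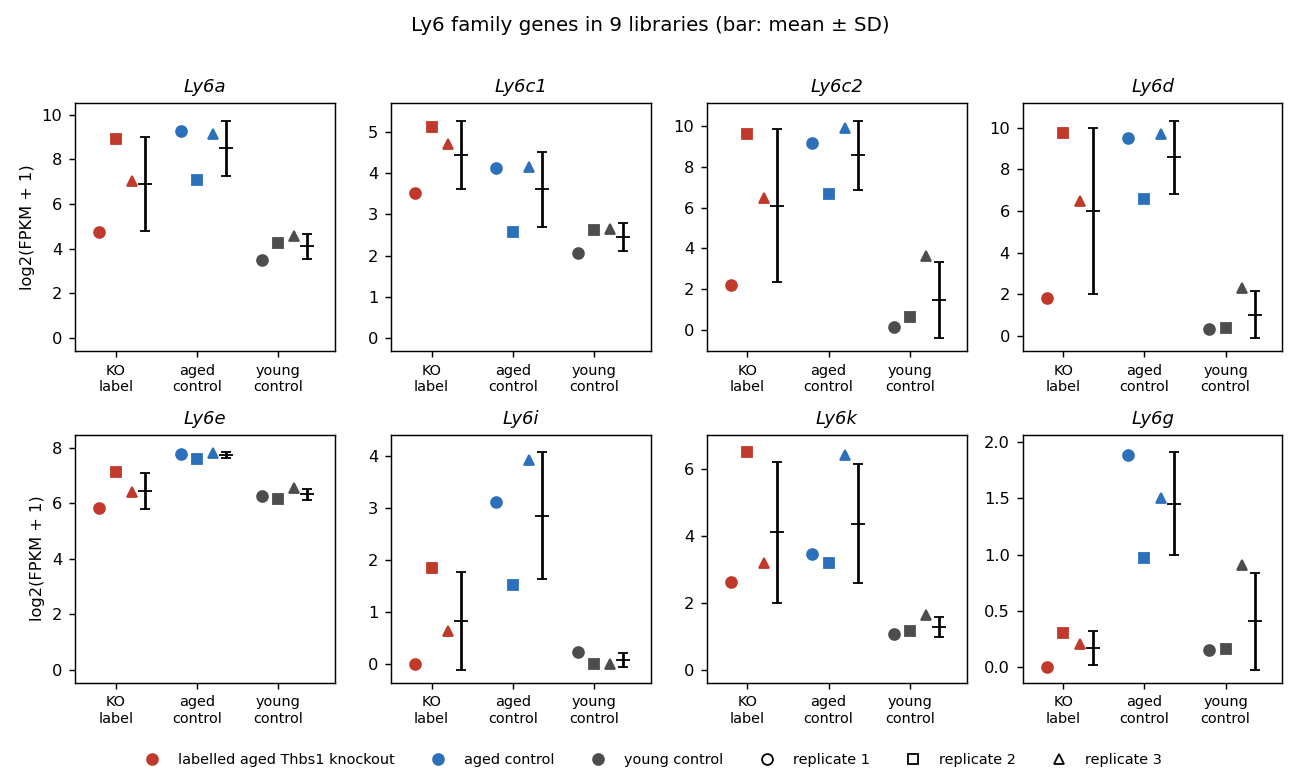
Levels of Ly6a and 7 relatives as log2(FPKM + 1) by group and replicate, bars showing the mean ± SD of 3 libraries. Ly6c2, Ly6d and Ly6i share with Ly6a high values in aged controls and labelled-knockout replicate 2, while Ly6c1 is highest in labelled-knockout replicates 2 and 3.

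Dpt, Clec3b, Mfap5, S100a4 and S100a6 had a different profile from Ly6a. All 5 were highest in labelled-knockout replicates 2 and 3, except that S100a6 in young replicate 3 exceeded labelled-knockout replicate 3. Labelled-knockout replicate 1 lay near the controls for all 5. None of the 9 tested genes passed in labelled-knockout libraries against aged controls in limma, where 3.48% of all genes passed. At an unadjusted p under 0.05 there were 4 of the 9, Pi16, Dpt, Clec3b and S100a6, and 19.8% of all genes. Clec3b entered the tests only through the labelled-knockout libraries, where it was high, so this count is not read against that share. Without labelled-knockout replicate 2, Pi16 and Dpep1 passed, in a fit that called 16% of all genes. Without its replicate 1 Dpt passed, where 0.859% of all genes did, and without aged replicate 3 Pi16 passed, where 3.17% did.

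Dpt (ENSMUSG00000026574.5, chromosome 1, 164796644 to 164824266, forward strand) encodes dermatopontin, a small matrix protein that binds decorin and collagen fibrils. It was at 1.44, 48.12 and 18.72 FPKM in labelled-knockout libraries, 2.15, 0.13 and 0.47 FPKM in aged controls and 1.78, 0.95 and 1.10 FPKM in young controls. Labelled-knockout replicates 2 and 3 were above all 6 controls, while replicate 1 lay among them. The log2 fold change was 2.94 against aged controls (SE 0.91, 95% interval 0.88 to 5.0, limma adjusted p = 0.121) and 2.57 against young controls (SE 0.91, limma adjusted p = 0.498). It was 4.16 against aged controls without labelled-knockout replicate 1 (limma adjusted p = 0.014) and 2.00 without replicate 2 (limma adjusted p = 0.101), with adjusted p-values of 0.014 to 0.295 over the alternatives. Aged and young controls overlapped, with a log2 fold change of −0.37 (limma adjusted p = 0.849).

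The genes most like Dpt over the 9 libraries were Mylpf, Tnfsf9, Gm23722, Mfap4 and Gm11353, with root mean square differences of 0.70, 0.93, 0.93, 0.95 and 0.95 against a median of 1.84. Mylpf, a myosin light chain of fast skeletal muscle, was at 0.58, 22.56 and 5.87 FPKM in labelled-knockout libraries, 1.52, 1.06 and 0.77 FPKM in aged controls and 1.39, 1.70 and 0.72 FPKM in young controls. Mfap4, a microfibril-associated glycoprotein, was at 1.21, 12.06 and 4.04 FPKM in labelled-knockout libraries, 0.64, 0.75 and 0.87 FPKM in aged controls and 1.83, 1.61 and 1.59 FPKM in young controls. Both were highest in labelled-knockout replicate 2 and second highest in its replicate 3.

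Clec3b (ENSMUSG00000025784.5, chromosome 9, 123150946 to 123157432, forward strand) encodes tetranectin, a secreted protein that binds plasminogen. It was at 1.23, 11.96 and 15.56 FPKM in labelled-knockout libraries, 0.31, 0.66 and 0.87 FPKM in aged controls and 0.46, 0.45 and 0.88 FPKM in young controls. All 3 labelled-knockout libraries lay above all 6 controls. The log2 fold change was 2.29 against aged controls (SE 0.64, limma adjusted p = 0.0905) and 2.30 against young controls (SE 0.64, limma adjusted p = 0.392), and 0.01 in aged against young controls (limma adjusted p = 0.995). Clec3b reached 1 FPKM only in the labelled-knockout libraries and so entered the tests through them alone. It dropped out of the tests when any 1 of those libraries was left out, and its separation carries no weight as a count.

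Mfap5 (ENSMUSG00000030116.14, chromosome 6, 122505845 to 122529290, forward strand) encodes a glycoprotein of elastic fibre microfibrils. It was at 3.10, 13.30 and 12.76 FPKM in labelled-knockout libraries, 4.24, 4.03 and 5.89 FPKM in aged controls and 3.17, 4.87 and 6.72 FPKM in young controls. The groups overlapped, since labelled-knockout replicate 1 was the lowest library of all 9. The log2 fold changes were 0.72 against aged controls, −0.02 in aged against young controls and 0.70 in labelled-knockout libraries against young controls (SE 0.47 each, limma adjusted p = 0.435, 0.987 and 0.652). The value in aged against young controls was 0.26 with median-ratio rescaling and 0.25 with immunoglobulin genes left out.

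Of 10 other microfibril genes 9 were tested. Mfap2, which encodes a related microfibril glycoprotein, was at 67.22, 86.92 and 80.99 FPKM in labelled-knockout libraries, 28.76, 44.15 and 29.42 FPKM in aged controls and 69.84, 75.54 and 90.13 FPKM in young controls. It rose by 1.20 in labelled-knockout libraries against aged controls (SE 0.24, limma adjusted p = 0.0325) and fell by 1.20 in aged against young controls (SE 0.24, limma adjusted p = 0.0314). These comparisons share the aged controls, which were the lowest 3 libraries. The call against aged controls was lost in 8 of 9 fits that left out 1 library and kept without labelled-knockout replicate 2, where 16% of all genes were called, and that in aged against young controls was lost in 6 of 9. No other microfibril gene passed in limma in these comparisons, and none passed in labelled-knockout libraries against young controls, where 0 had an unadjusted p under 0.05, against 8.63% of all genes.

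S100a4 and S100a6 encode small calcium-binding proteins, the first long used as a fibroblast marker and the second known as calcyclin. S100a4 was at 1.70, 40.36 and 15.37 FPKM in labelled-knockout libraries, 4.22, 2.29 and 2.38 FPKM in aged controls and 2.45, 2.31 and 7.52 FPKM in young controls. Labelled-knockout replicates 2 and 3 were above every control and replicate 1 was the lowest library of all. The log2 fold change was 1.66 against aged controls (SE 0.84, limma adjusted p = 0.312) and 1.41 against young controls (SE 0.84, limma adjusted p = 0.621), and −0.25 in aged against young controls (limma adjusted p = 0.896). Against aged controls it was 2.75 without labelled-knockout replicate 1 and 0.78 without its replicate 2.

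S100a6 was more abundant, at 102.09, 352.02 and 164.79 FPKM in labelled-knockout libraries, 67.71, 92.38 and 62.65 FPKM in aged controls and 85.28, 105.07 and 197.95 FPKM in young controls. Each labelled-knockout library lay above each aged control, by a log2 fold change of 1.29 (SE 0.47, 95% interval 0.25 to 2.34, limma adjusted p = 0.168). Against young controls it was 0.58 (SE 0.47, limma adjusted p = 0.684), and the aged controls were 0.72 lower than young controls on the log2 scale (log2 fold change −0.72, limma adjusted p = 0.404). Of 11 other S100 genes 8 were tested, and 0 passed in any of the 3 comparisons in limma. Of these 8, 2, 5 and 2 had an unadjusted p under 0.05 in labelled-knockout libraries against aged controls, in aged against young controls and in labelled-knockout libraries against young controls, where 19.8%, 21.7% and 8.63% of all genes did.

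The 4 tendon markers did not move as 1 group. Thbs4, thrombospondin-4 of tendon and muscle, was at 1.14, 12.80 and 64.84 FPKM in labelled-knockout libraries, 1.21, 0.27 and 1.46 FPKM in aged controls and 4.76, 6.82 and 4.58 FPKM in young controls. Tnmd, tenomodulin, was at 0.48, 2.84 and 10.07 FPKM in labelled-knockout libraries, 0.11, 0.32 and 0.43 FPKM in aged controls and 1.24, 0.50 and 0.53 FPKM in young controls. The 4 tendon markers summed to 7.86 to 86.6, 6.31 to 8.01 and 14.9 to 18.1 FPKM in labelled-knockout libraries, aged controls and young controls, and none of the 4 was below 1 FPKM throughout. Scx, a transcription factor of tendon, was at 0.67, 0.19 and 5.77 FPKM in labelled-knockout libraries, 0.34, 0.45 and 0.51 FPKM in aged controls and 1.66, 1.49 and 1.57 FPKM in young controls. Mkx, another tendon transcription factor, was at 5.57, 2.62 and 5.90 FPKM in labelled-knockout libraries, 4.65, 6.38 and 5.61 FPKM in aged controls and 10.39, 8.84 and 8.20 FPKM in young controls. Scx and Mkx were thus lowest of all 9 libraries in labelled-knockout replicate 2, where Dpt and S100a4 were highest, while Thbs4 and Tnmd were high in replicates 2 and 3. The 4 skeletal muscle markers summed to 1.22 to 13.8, 1.38 to 1.58 and 1.47 to 4.19 FPKM in the same groups, and Ckm and Myh4 were below 1 FPKM in every library. The part of Thbs4, Tnmd and the muscle markers in the differences of Dpt, Clec3b and S100a4 was not tested.

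Among 24 other fibroblast genes 21 were tested, and 3 rose when labelled-knockout libraries were set against aged controls, where 1.52% of all genes rose, and 0 fell. The 3 include Col15a1, which reached 1 FPKM in the labelled-knockout libraries alone and so entered the tests through its high group, and the count is not read against that share. The median log2 fold change of all 21 was 0.56, against 0.83 for the 9 genes tested here and 0.07 for all genes. The 21 include Col15a1 and the 9 include Clec3b, each tested only through its high group. These medians are therefore not read against that of all genes. Pcolce2, an enhancer of procollagen processing, was at 33.16, 10.47 and 61.96 FPKM in labelled-knockout libraries, 1.97, 1.86 and 2.17 FPKM in aged controls and 3.03, 5.49 and 5.68 FPKM in young controls. It rose by 3.28 (SE 0.53, limma adjusted p = 0.0212). Igfbp6, which binds insulin-like growth factor 2, was at 18.61, 47.08 and 100.08 FPKM in labelled-knockout libraries, 7.38, 7.94 and 5.31 FPKM in aged controls and 7.16, 14.59 and 14.88 FPKM in young controls. It rose by 2.55 (SE 0.53, limma adjusted p = 0.0365).

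The 5 chondrocyte markers, of which 4 rose against aged controls (1.52% of all genes), summed to 960, 96.9 and 2445 FPKM in labelled-knockout libraries, 12.1, 11.8 and 14.5 FPKM in aged controls and 133, 252 and 103 FPKM in young controls. The 5 osteoblast markers summed to 4549, 1455 and 6532 FPKM in labelled-knockout libraries, 948, 1795 and 1218 FPKM in aged controls and 6808, 6360 and 4830 FPKM in young controls. Of these 5, 3 rose against aged controls and 3 fell in aged against young controls (1.47% of all genes). Among the labelled-knockout libraries both sums were highest in replicate 3 and lowest in replicate 2, as Pcolce2 was, and their part in its difference or in that of Sfrp4 was not tested. Col15a1, a basement membrane collagen, was at 1.07, 2.43 and 1.91 FPKM in labelled-knockout libraries, 0.16, 0.22 and 0.21 FPKM in aged controls and 0.49, 0.51 and 0.47 FPKM in young controls. It rose by 1.20 against aged controls (SE 0.23, limma adjusted p = 0.029), a call that carries no weight, as for Clec3b, since it was tested only through these libraries. Labelled-knockout replicate 1 was above all 6 controls for Pcolce2, Igfbp6 and Col15a1, but not for Dpt. The count of 3 was 4 without labelled-knockout replicate 2 (Cd248, Igfbp6, Pcolce2 and Sfrp4), in a fit that called 16% of all genes, 3 without its replicate 1 (Fbln2, Igfbp6 and Mfap4), 1 without its replicate 3, 0 without aged replicate 1 or 2, and 1 without aged replicate 3 or any young replicate, the 1 being Pcolce2 each time. Igfbp6 was lost in 7 of 9 such fits, Pcolce2 in 3 of 9 and Col15a1 in all 6 in which it was tested. In aged against young controls 1 of the 21 genes fell, where 1.47% of all genes did, namely Sfrp4, an antagonist of Wnt signals, by 1.85 on the log2 scale (SE 0.41, limma adjusted p = 0.0409). Sfrp4 was at 91.49, 176.42 and 122.21 FPKM in aged controls and 532.75, 390.12 and 455.94 FPKM in young controls, and its call was lost in 6 of 9 fits that left out 1 library. In labelled-knockout libraries against young controls 0 passed in limma, where 7 of the 21 had an unadjusted p under 0.05, against 8.63% of all genes. The 7 include Col15a1, so this count too is not read against that share.

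**Figure D4:**
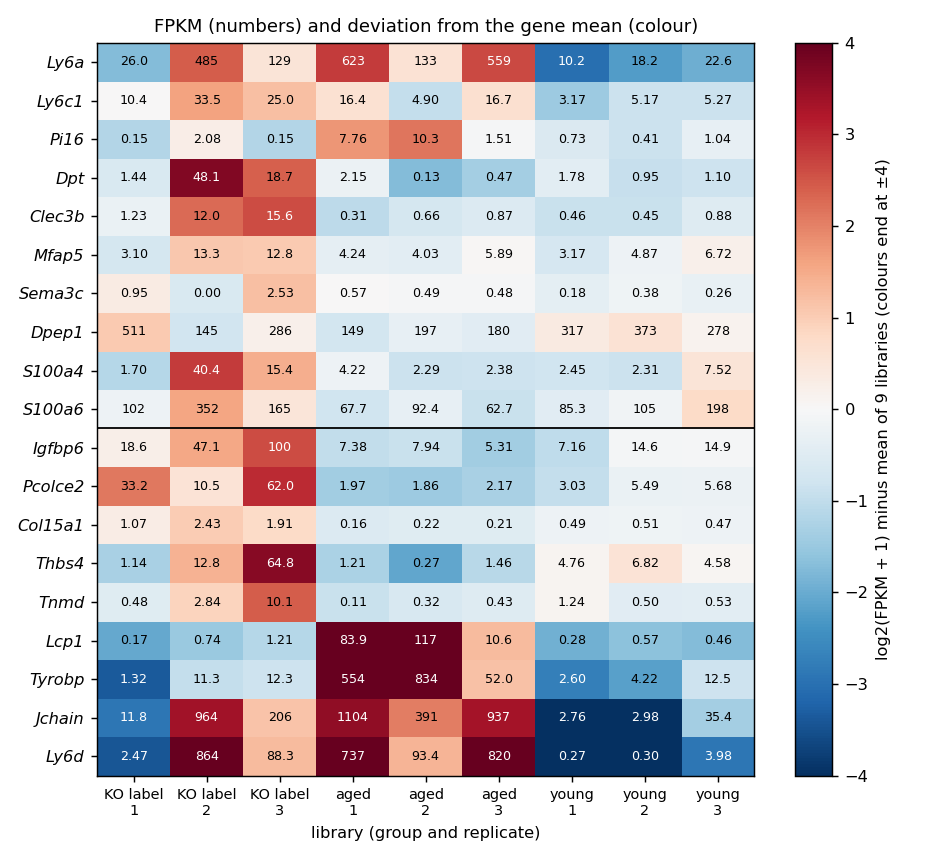
FPKM of the 10 genes (above the line) and of 9 other genes (below it) in each library, with numbers giving FPKM and colour the log2(FPKM + 1) minus the gene's mean over 9 libraries. Dpt, Clec3b, Mfap5, S100a4 and S100a6 are high in labelled-knockout replicates 2 and 3 together with Igfbp6 and Thbs4, Pi16 is high in aged replicates 1 and 2 together with Lcp1 and Tyrobp, and Ly6a is high in the same libraries as Jchain and Ly6d.

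Pi16 (ENSMUSG00000024011.17, chromosome 17, 29317680 to 29330593, forward strand) encodes peptidase inhibitor 16, a surface and secreted protein that marks adventitial fibroblasts. It was at 0.15, 2.08 and 0.15 FPKM in labelled-knockout libraries, 7.76, 10.26 and 1.51 FPKM in aged controls and 0.73, 0.41 and 1.04 FPKM in young controls. Aged controls lay above young controls in all 3 libraries, and aged replicate 3 lay below labelled-knockout replicate 2. The log2 fold change was −1.98 in labelled-knockout libraries against aged controls (SE 0.58, 95% interval −3.27 to −0.68, limma adjusted p = 0.105) and 1.88 in aged against young controls (SE 0.58, limma adjusted p = 0.106). In labelled-knockout libraries against young controls it was −0.10 (limma adjusted p = 0.962). Pi16 passed against aged controls without labelled-knockout replicate 2 (log2 fold change −2.45, limma adjusted p = 0.0213) and without aged replicate 3 (−2.64, limma adjusted p = 0.0185), in fits that called 16% and 3.17% of all genes. In aged against young controls it passed without labelled-knockout replicate 2 (1.88, limma adjusted p = 0.0268) and without aged replicate 3 (2.54, limma adjusted p = 0.0208), where 23.1% and 3.02% of all genes were called.

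Pi16 did not follow Dpt, although both mark the same kind of fibroblast, and the libraries with the most Pi16 were not those with the most Dpt. Aged replicate 2 had the most Pi16 and the least Dpt of all 9 libraries. The blood cell genes Lcp1 and Tyrobp, chosen after their values were seen, were highest in the same aged replicates as Pi16. Lcp1, the actin bundler of leukocytes, was at 0.17, 0.74 and 1.21 FPKM in labelled-knockout libraries, 83.91, 116.91 and 10.59 FPKM in aged controls and 0.28, 0.57 and 0.46 FPKM in young controls. Tyrobp, a signalling adaptor of myeloid and natural killer cells, was at 1.32, 11.28 and 12.34 FPKM in labelled-knockout libraries, 554.30, 833.87 and 52.04 FPKM in aged controls and 2.60, 4.22 and 12.48 FPKM in young controls. Of the 9 pan-leukocyte markers tested 6 were called lower in labelled-knockout libraries than in aged controls, where 1.96% of all genes were, and 7 of 9 rose in aged against young controls, where 2.57% did. Macrophage and monocyte markers summed to 49.9 to 319, 306 to 1414 and 65.4 to 137 FPKM in labelled-knockout libraries, aged controls and young controls. Of 6 such markers tested, 1, Tyrobp, was called lower in labelled-knockout libraries than in aged controls. Other markers did not move with Pi16. Csf1r was at 1.88, 3.53 and 1.51 FPKM in labelled-knockout libraries and 1.18, 1.49 and 0.66 FPKM in aged controls. Ctss was at 125.29 FPKM in labelled-knockout replicate 2 and 31.49 FPKM in aged replicate 2, and Cd52 at 544.91 and 112.58 FPKM. Lcp1 and Tyrobp broadly moved with Pi16, and the part of all these markers in its differences was not tested.

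Dpep1 (ENSMUSG00000019278.5, chromosome 8, 123186242 to 123201812, forward strand) encodes a lipid-anchored dipeptidase that cleaves leukotriene D4, and it varied least of the 10 genes, with a highest library at 3.52 times the lowest. It was at 510.67, 145.17 and 285.61 FPKM in labelled-knockout libraries, 149.48, 196.52 and 180.02 FPKM in aged controls and 317.12, 372.60 and 277.52 FPKM in young controls. Every aged control lay below every young control, and labelled-knockout replicate 2 was the lowest library. Over the 9 libraries Dpep1 averaged 271 FPKM. The leptin receptor stroma markers averaged from 23.9 FPKM for Ebf3 to 4697 FPKM for Cxcl12. Of the other members, Ly6a averaged 223 FPKM and S100a6 137 FPKM, and the rest 0.649 to 13.4 FPKM. Which cells the Dpep1 RNA came from was not tested. The log2 fold change was −0.87 in aged against young controls (SE 0.41, 95% interval −1.79 to 0.04, limma adjusted p = 0.252), 0.66 in labelled-knockout libraries against aged controls (SE 0.41, limma adjusted p = 0.401) and −0.21 against young controls (SE 0.41, limma adjusted p = 0.866). Without labelled-knockout replicate 2 it passed against aged controls at 1.13 (limma adjusted p = 0.0317) and in aged against young controls at −0.87 (limma adjusted p = 0.0394), in fits that called 16% and 23.1% of all genes. With immunoglobulin genes left out, the fold change in aged against young controls was −0.56 (limma adjusted p = 0.622), and lower values in aged against young controls were common, since 37.4% of all tested genes had every aged control below every young control.

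Sema3c (ENSMUSG00000028780.13, chromosome 5, 17574281 to 17730268, forward strand) encodes a secreted semaphorin that binds neuropilins. It was at 0.95, 0.00 and 2.53 FPKM in labelled-knockout libraries, 0.57, 0.49 and 0.48 FPKM in aged controls and 0.18, 0.38 and 0.26 FPKM in young controls. It alone among the 10 was outside the main tests, having reached 1 FPKM in 1 library. Tested without a filter, its log2 fold changes were 0.33, 0.25 and 0.58 in labelled-knockout libraries against aged controls, in aged against young controls and in labelled-knockout libraries against young controls (limma adjusted p = 0.735, 0.801 and 0.738). Of 13 other class 3 semaphorins, neuropilins and plexins 6 were tested, and 0 passed in limma in any comparison. Of these 6, 3, 3 and 0 had an unadjusted p under 0.05 in those 3 comparisons, where 19.8%, 21.7% and 8.63% of all genes did.

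Set beside each other, the 9 tested genes had a median log2 fold change of 0.83 in labelled-knockout libraries against aged controls, −0.02 in aged against young controls and 1.41 in labelled-knockout libraries against young controls. The medians over all tested genes were 0.07, −0.28 and −0.16. Clec3b, tested only through its high group, is among the 9, so the medians of 0.83 and 1.41 are not read against these. In labelled-knockout libraries against young controls 0 of the 9 genes passed in limma, where 0.0250% of all genes passed, and 4 of the 9 had an unadjusted p under 0.05, as did 8.63% of all genes. The 4 include Clec3b, which was tested only through its high group, so this count is not read against that share. Libraries did not overlap, with higher values in the labelled-knockout group, for Ly6a, Ly6c1 and Clec3b, the last tested only through its high group, in that comparison, where 4.08% of all genes did so. Against aged controls the same held for Clec3b, again tested only through its high group, and S100a6, where the share of all genes was 16.6%. In aged against young controls Ly6a and Pi16 were higher without overlap, where 7.02% of all genes were, and Dpep1 was lower without overlap, where 37.4% of all genes were, so that 1 of 9 was below the share of all genes. The comparisons share libraries, so their values are not independent of one another.

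**Figure D5:**
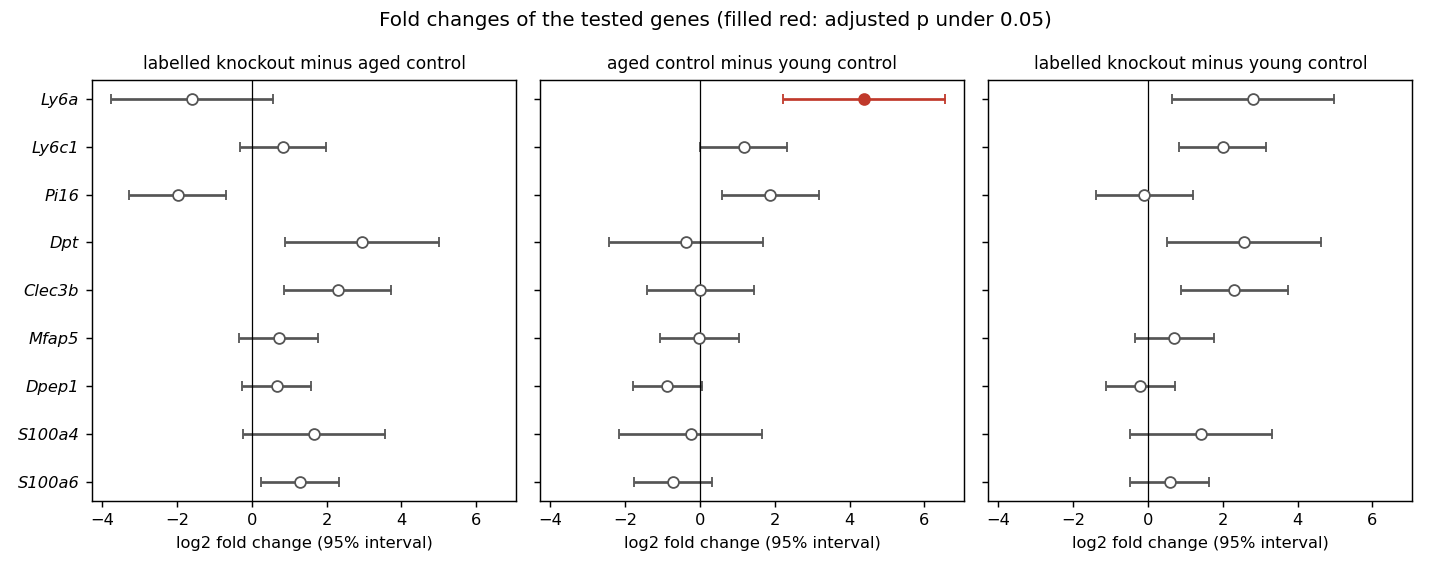
Log2 fold changes on the log2(FPKM + 1) scale with 95% intervals for the 9 tested genes, for labelled-knockout libraries against aged controls, aged against young controls and labelled-knockout libraries against young controls. Ly6a in aged against young controls, at 4.39 and drawn filled, is the only value past the adjusted threshold of 0.05.

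The 10 genes varied in more than 1 way over the 9 libraries. The closest pairs were Mfap5 and S100a6 with a root mean square difference of 0.50, Sema3c and Dpep1 with 0.63, and Clec3b and S100a4 with 0.69. This measure is not scaled to the spread of a gene, so genes that vary little come out close. Sema3c reached 1 FPKM in 1 library and was highest in labelled-knockout replicate 3, Dpep1 in replicate 1. Dpt differed by 0.74 from Clec3b and by 0.75 from S100a4. The ratio of the highest to the lowest library above 0 was 3.52 for Dpep1, 4.29 for Mfap5 and 5.62 for S100a6, but 61.0 for Ly6a, 68.4 for Pi16 and 370 for Dpt. The genes were thus high in different libraries, Ly6a in aged controls and labelled-knockout replicate 2, Pi16 in aged replicates 1 and 2, and Dpt in labelled-knockout replicates 2 and 3.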

How the data were processed

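RNA was sequenced from 3 groups of 3 libraries of sorted marrow stromal cells. The deposited table holds FPKM per gene, rounded by the authors. Per the submitters' processing notes FastQC 0.11.5, STAR and edgeR were used with GRCm38 (mm10); the sources used here give neither the annotation nor the handling of reads that map to several places. Groups came from the genotype labels. Limma 3.58.1 in R 4.3.3 with an intensity trend was run on log2(FPKM + 1) for the 11988 genes that reached 1 FPKM in 3 or more libraries. A single fit over the 9 libraries had 6 residual degrees of freedom, and the Benjamini-Hochberg adjustment covered all genes, with a threshold of 0.05. On this scale the fold changes of weakly expressed genes come out too small. The procedure was tested on simulated data. Depth was estimated from the steps between low FPKM values of genes with 1 transcript of 300 to 1000 bases, within 10 to 40 M reads (M, mega); 92.1% to 100.0% of those values were whole reads within 0.1. The members and lists were chosen with earlier results of these data known. Named genes were the 10 members, the members of the 5 lists that passed, at most 4 per list with the smallest p, and the 5 genes most like Ly6a and Dpt; others are given as chosen after their values were seen or belong to marker lists. The fits were repeated with each library left out, with a replicate block, with only the groups compared, with 261 immunoglobulin genes left out, with median-ratio rescaling, with a minimum of 5 FPKM or no filter, and with a pseudocount of 0.1. Python 3.11.15, numpy 2.4.6, pandas 2.3.3 and matplotlib 3.10.9 were used for the rest.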

Additional observations from a re-analysis of the deposited data

How the results depend on the processing

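Over 412 alternative fits of single genes, 376 kept their direction and their side of the threshold. The count of the 9 tested genes that passed in labelled-knockout libraries against aged controls, 0, was 0 to 2 with 1 library left out. In aged against young controls the count, 1, was 0 with no filter, 0 with median-ratio rescaling, 3 with only the groups compared, 0 with the replicate block, and 0 to 3 with 1 library left out. It was 0 in every alternative in labelled-knockout libraries against young controls. The count of other fibroblast genes, 3, was 0 with no filter, 0 with only the groups compared, 1 with the replicate block, and 0 to 4 with 1 library left out. The count of Ly6 family genes, 3, was 0 with no filter, 0 with median-ratio rescaling, 5 with only the groups compared, 0 with the replicate block, and 0 to 5 with 1 library left out. These 2 list counts were added after the data were seen. Fold changes near 0 turned sign. In aged against young controls Mfap5 was 0.26 with median-ratio rescaling and 0.25 with immunoglobulin genes left out, S100a4 was 0.0081 with median-ratio rescaling, and with 1 library left out Mfap5 ranged from −0.25 to 0.19, Clec3b from −0.10 to 0.15 and S100a4 from −0.49 to 0.20. In labelled-knockout libraries against young controls median-ratio rescaling gave 0.045 for Pi16 and 0.0028 for Dpep1, and 1 library left out gave −0.57 to 0.14 for Pi16 and −0.65 to 0.25 for Dpep1. The causes were not tested. Same-numbered libraries deviated together at correlations of −0.29 to 0.30, so the numbers were not taken as pairs, and the block result does not measure a weaker effect. Leaving out immunoglobulin genes shifted the median of all genes to −0.11, −0.02 and −0.08 in labelled-knockout libraries against aged controls, in aged against young controls and in labelled-knockout libraries against young controls.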

Other observations

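The genes whose profile over the 9 libraries was most like that of Pi16, a comparison chosen after its values were seen, were Dapp1, Lat, Pirb, Arhgap25 and Slc41a3, with root mean square differences of 0.20, 0.25, 0.28, 0.30 and 0.32 on the log2 scale against a median of 1.29 over 11979 genes. Lat, an adaptor of T cell receptor signalling, was at 0.14, 1.81 and 0.24 FPKM in labelled-knockout libraries, 7.80, 8.07 and 0.66 FPKM in aged controls and 0.26, 0.24 and 0.35 FPKM in young controls. Pirb, an inhibitory receptor of myeloid and B cells, was at 0.15, 1.46 and 0.08 FPKM in labelled-knockout libraries, 6.39, 12.10 and 0.42 FPKM in aged controls and 0.48, 0.14 and 0.45 FPKM in young controls. Both were highest in aged replicates 1 and 2, like Pi16.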
